A study of Mus musculus with 8 samples.

Results

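The contractile apparatus of skeletal muscle was read through 47 gene symbols in whole belly skin of the mouse, a tissue whose deepest layer, the panniculus carnosus, is a thin sheet of skeletal muscle. The members were chosen by name and then located on the array: for each gene the probe set annotated to that symbol alone with the highest mean signal over the animals was taken. Of the 47 members 46 had such a probe set, out of 18193 genes that the annotation names on this array, and only Xirp2, a protein of the muscle attachment sites, had none. The 46 genes had 74 probe sets in all, so 28 further probe sets measured the same genes, and the 46 chosen ones all passed the filter on low values that 13559 genes of the array passed. By role, 8 members belong to the thick filament, 9 to the thin filament, 12 to the Z-disc, M-band and scaffold, 9 to excitation-contraction coupling and calcium handling, 7 to energy supply, and Trim63 to protein turnover.

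The study set transgenic mice carrying human hurpin against wildtype mice, all 8 months old. Hurpin, also known as SERPINB13, is an intracellular serpin that inhibits cathepsin L, a lysosomal cysteine protease. The transgenic group held females 7 and 84 and males 11 and 17 (n = 4), and the wildtype group held males 26 and 28 and female 29 (n = 3), the last hybridised to 2 arrays that were averaged into 1 animal. The promoter that drives the transgene, the strain and the hair cycle stage are not given in the sources used here, and the labels name the tissue only as skin of the belly, so the muscle layer is an inference from the genes. The p-values below measure the spread between these animals.

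In skeletal muscle, myosin motors of the thick filament pull on actin of the thin filament, and the troponin complex on the thin filament lets them do so only when calcium is present. Calcium is released from the sarcoplasmic reticulum through the ryanodine receptor after the voltage sensor in the membrane is triggered, and is pumped back by the SERCA ATPase. Fast and slow fibres build these parts from different genes, with separate myosin heavy chains, light chains, troponins and calcium pumps. The panniculus carnosus of rodents twitches the skin and is known as a sheet made mostly of fast fibres. In whole skin, fewer muscle cells and less RNA per muscle cell cannot be told apart.

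Values are log2 of signal intensity after adding 21.8, so that the lowest possible value is 4.45, and a difference is transgenic minus wildtype on that scale. Signal summed over an array lay between 34785081 and 37857733 on the 8 arrays. The Gapdh control probe sets gave a ratio of 3' over 5' signal, which is higher where RNA is degraded or copied incompletely, of 13.83 in transgenic 7, 1.45 in 11, 4.68 in 17 and 17.24 in 84, against 1.145 and 1.033 in wildtype 26 and 28 and 1.41 and 0.9267 on the arrays of 29. It therefore differed between the groups, with every transgenic animal above every wildtype array, and, among transgenic animals, between the sexes. The ratio was entered only as a covariate. Because ratio and group go together in these 7 animals, that fit cannot tell them apart, and the part of the ratio in the muscle values was not tested.

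Muscle genes of every role were measured in the skin of both groups, and none passed the test between transgenic and wildtype skin after adjustment. With limma and Benjamini-Hochberg adjustment over all 27022 probe sets, 0 of 46 members passed an adjusted p of 0.05, where 4 probe sets passed in all (0.0148%), and the lowest adjusted p of a member was 0.340. At an unadjusted p under 0.05, 6 members stood higher in transgenic skin and 0 lower (13.0% of members), against 4.4% of all genes higher and 4.6% lower. The members' median difference was 0.29 and 35 of 46 lay above 0 (76.1%), beside a median of 0.05 and 56.3% above 0 over all 13559 genes. Without wildtype 29 the members' median was 0.07 with 27 above 0. There 0 members passed the unadjusted threshold, beside 2.25% of all genes higher. When that Gapdh ratio was entered as a covariate, the median was -0.07 and 22 lay above 0. In that fit 0 members passed the unadjusted threshold, beside 1.28% of all genes higher. The sign of 21 members turned there, among them Casq1, Ckmt2, Eno3, Jph1, Pgam2 and the heavy chains Myh2 and Myh4.

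**Figure D1:**
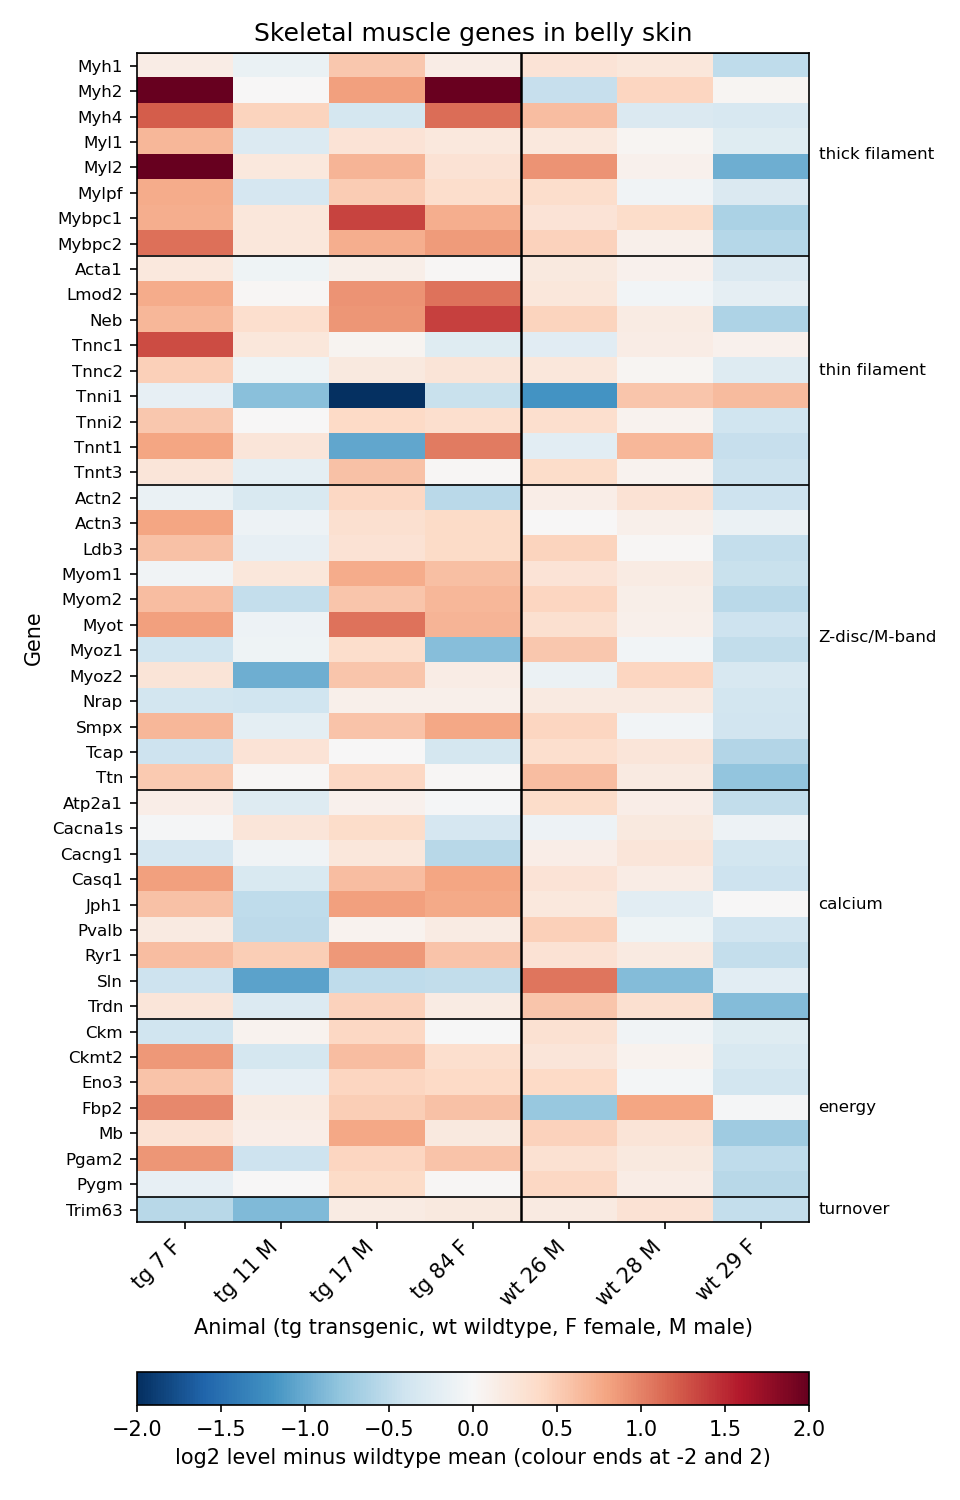
Log2 intensity of each of the 46 member genes (rows, ordered by role) in each of the 7 animals (columns), shown as the deviation from the mean of the 3 wildtype animals, with colours ending at -2 and 2. Wildtype 29 is the lowest animal in 26 rows and transgenic 7 the highest in 17, while transgenic 11 lies below the wildtype mean in most rows.

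The thick filament is led by 3 genes of the fast myosin heavy chain cluster on chromosome 11. These genes did not vary alike across animals. Their sequences before the start share a stretch and are shown here, and any relation of sequence to level was not tested. The 250 bases before the start are given for each from RefSeq on GRCm38.p6, 5' to 3' on the gene's strand. Capitals mark a run of 20 bases that all 3 share and, where present, the letters TATAAA.
Myh1, chr11:67199852-67200101, plus strand: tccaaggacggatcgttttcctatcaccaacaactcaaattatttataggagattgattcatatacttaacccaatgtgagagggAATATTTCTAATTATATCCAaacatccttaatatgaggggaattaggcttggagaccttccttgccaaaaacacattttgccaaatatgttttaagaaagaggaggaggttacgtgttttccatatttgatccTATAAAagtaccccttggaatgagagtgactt
Myh2, chr11:67170777-67171026, plus strand: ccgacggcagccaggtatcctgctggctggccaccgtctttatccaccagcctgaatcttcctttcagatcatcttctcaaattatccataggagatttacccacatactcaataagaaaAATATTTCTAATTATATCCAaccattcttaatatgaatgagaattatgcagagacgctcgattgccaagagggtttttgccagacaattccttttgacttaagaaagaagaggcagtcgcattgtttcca
Myh4, chr11:67237562-67237811, plus strand: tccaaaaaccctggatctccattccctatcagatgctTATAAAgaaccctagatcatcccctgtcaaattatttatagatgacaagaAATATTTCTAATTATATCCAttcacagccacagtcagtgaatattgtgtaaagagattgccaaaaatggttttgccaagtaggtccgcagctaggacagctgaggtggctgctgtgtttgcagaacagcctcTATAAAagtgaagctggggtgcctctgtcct
The shared run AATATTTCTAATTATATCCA was present in 3 of 32851 windows of this length (0.00913%), those of Myh1, Myh2 and Myh4. The run was picked as the longest that these 3 windows share, so its presence in them was fixed beforehand. It ended 146 bases before the start in Myh1, 111 in Myh2 and 144 in Myh4. TATAAA began 32 bases before the start in Myh1. Myh4 held it 2 times, the last beginning 31 bases before the start. The Myh2 window does not hold these letters. Its shared run lay closer to the annotated start than in Myh1 and Myh4, and bases past the start were not searched.

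All 8 thick filament genes had a difference above 0, with a median of 0.66, and 3 of them had an unadjusted p under 0.05. Without wildtype 29 it was 7 of 8 with a median of 0.44, and with the Gapdh covariate 4 of 8 with a median of -0.02. Myh2, the heavy chain of type IIa fibres, measured 12.70, 10.20, 11.01 and 12.17 in transgenic 7, 11, 17 and 84 and 9.73, 10.62 and 10.24 in wildtype 26, 28 and 29. The females 7 and 84 were the highest animals, transgenic 11 lay among the wildtype values, and the groups overlapped. Its difference of 1.33 (SE 0.54, 95% interval 0.10 to 2.56) was the largest among the members, with an unadjusted p of 0.0377 and a limma adjusted p of 0.405, and it was -0.31 once the Gapdh ratio entered the model. Myh4, the heavy chain of type IIb fibres, measured 14.74, 13.98, 13.17 and 14.64 against 14.15, 13.24 and 13.20. Again transgenic 7 and 84 were highest, but male 17 was the lowest animal of all, and the difference of 0.60 (SE 0.39) had a limma adjusted p of 0.566. Myh1, the type IIx heavy chain, measured 14.37, 14.09, 14.76 and 14.36 against 14.50, 14.45 and 13.72. Here male 17 was highest and wildtype 29 lowest, so that the order of the animals differed from that of both neighbouring genes, with a difference of 0.18 (SE 0.22).

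Among the partners of the heavy chains, Mybpc2, the fast myosin-binding protein C that tethers and tunes the myosin heads, measured 12.15, 11.27, 11.77 and 11.90 in the transgenic and 11.51, 11.16 and 10.48 in the wildtype animals. Its counterpart Mybpc1, counted here as slow, measured 11.93, 11.43, 12.55 and 11.94 against 11.48, 11.57 and 10.57. Both were lowest in wildtype 29, and their differences of 0.72 (SE 0.28) and 0.76 (SE 0.31) had unadjusted p-values of 0.0284 and 0.0375 and limma adjusted p-values of 0.386 and 0.405. Without wildtype 29 both were 0.44, and with the Gapdh covariate Mybpc2 was 0.21 and Mybpc1 0.52. Another probe set of Mybpc1, and another of Myh4, gave a difference of the opposite sign. Mylpf, the fast regulatory light chain, measured 14.43, 13.34, 14.19 and 14.02 against 14.04, 13.60 and 13.40, a difference of 0.32 (SE 0.26). Myl2, the regulatory light chain of slow fibres and heart, measured 9.09, 6.33, 6.80 and 6.41 against 7.02, 6.21 and 5.15. Transgenic 7 stood apart from the other 3 transgenic animals, which lay between wildtype 28 and 26. The difference of 1.03 (SE 0.71) was 0.39 without transgenic 7 and 0.10 with the Gapdh covariate. Myl1, the essential light chain of fast fibres, differed by 0.22 (SE 0.21).

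The thin filament genes had 8 of 9 differences above 0, with a median of 0.26. Without wildtype 29 it was 6 of 9 with a median of 0.08, and the median was 0.12 without transgenic 7 and 0.03 with the Gapdh covariate. Neb, the giant ruler protein nebulin that runs along the actin filament, measured 11.70, 11.38, 11.93 and 12.41 in the transgenic animals and 11.48, 11.21 and 10.43 in the wildtype animals. Transgenic 84 was highest, wildtype 29 lowest, and transgenic 11 below wildtype 26, and the difference was 0.81 (SE 0.30, 95% interval 0.13 to 1.49, unadjusted p of 0.0243, limma adjusted p of 0.375). Lmod2, leiomodin 2, which nucleates actin and lengthens thin filaments, measured 9.94, 9.22, 10.10 and 10.28 against 9.42, 9.15 and 9.03. Transgenic 7, 17 and 84 all lay above the wildtype animals and transgenic 11 between them, with a difference of 0.69 (SE 0.26, unadjusted p of 0.0261, limma adjusted p of 0.38). The adjusted p of Lmod2 was 0.0613 without transgenic 11, the lowest of any member in the 22 alternatives, and its difference was 0.07 with the Gapdh covariate. The difference of Neb was 0.32 with that covariate and 0.51 without wildtype 29.

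Acta1, skeletal actin itself, measured 14.82, 14.53, 14.72 and 14.63 in the transgenic and 14.80, 14.70 and 14.32 in the wildtype animals, a difference of 0.07 with a 95% interval of -0.25 to 0.39. The value was -0.09 after cyclic loess normalization. The 250 bases before the start of Acta1, a gene long used as the example of a serum response factor target in muscle, follow with the CArG box and TATAAA in capitals.
Acta1, chr8:123894776-123895025, minus strand: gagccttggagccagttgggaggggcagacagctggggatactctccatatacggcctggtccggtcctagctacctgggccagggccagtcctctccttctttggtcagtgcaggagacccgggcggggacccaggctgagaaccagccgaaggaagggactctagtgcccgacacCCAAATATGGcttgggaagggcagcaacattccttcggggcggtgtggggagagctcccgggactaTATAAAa
The CArG box, the site that serum response factor binds, lay 73 to 64 bases before the start, and TATAAA began 7 bases before it.

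The troponins came as fast and slow partners. Tnnc2, the fast calcium sensor, measured 14.60, 14.03, 14.32 and 14.38 against 14.34, 14.16 and 13.86, and slow Tnnc1 measured 7.88, 6.81, 6.64 and 6.32 against 6.34, 6.72 and 6.66. The fast gene held a range under 1 log2 unit over all animals, and the slow gene was highest in transgenic 7. Tnni2, the fast inhibitory subunit, measured 14.26, 13.73, 14.12 and 14.06 against 14.06, 13.79 and 13.33, while slow Tnni1 measured 6.80, 6.12, 4.85 and 6.51 against 5.77, 7.51 and 7.60. Tnni1 was lowest in transgenic 17 and highest in wildtype 28 and 29, and its difference of -0.89 (SE 0.59, limma adjusted p of 0.578) was the lowest of the members. Tnnt3, the fast tropomyosin-binding subunit, measured 13.56, 13.13, 13.90 and 13.35 against 13.68, 13.39 and 12.88, and slow Tnnt1 measured 8.61, 8.05, 6.78 and 8.85 against 7.60, 8.49 and 7.37. Male 17 held the highest Tnnt3 and the lowest Tnnt1 of the 7 animals, and neither gene separated the groups (differences of 0.17, SE 0.23, and 0.26, SE 0.49).

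The Z-disc, M-band and scaffold genes were the most evenly divided structural group, with 7 of 12 above 0, a median of 0.26 and 0 at an unadjusted p under 0.05. The median turned to -0.06 without wildtype 29 (6 of 12 above 0) and to -0.05 with the Gapdh covariate. Ttn, titin, the spring that spans from Z-disc to M-band, measured 12.20, 11.71, 12.10 and 11.71 against 12.31, 11.86 and 10.89. Wildtype 29 was lowest and wildtype 26 highest, so the wildtype animals enclosed all transgenic ones. Actn3, the fast Z-disc crosslinker alpha-actinin 3, measured 12.09, 11.19, 11.61 and 11.67 against 11.30, 11.40 and 11.17, with a difference of 0.35 (SE 0.20). Actn2, the alpha-actinin of all fibres, measured 10.07, 9.89, 10.62 and 9.66 against 10.33, 10.49 and 9.78. Actn2 was highest in male 17 and Actn3 in female 7. Myoz1, a calcineurin-binding Z-disc protein of fast fibres, measured 11.03, 11.34, 11.78 and 10.57 against 11.96, 11.37 and 10.93, and its slow counterpart Myoz2 measured 8.97, 7.73, 9.26 and 8.85 against 8.60, 9.14 and 8.39. Tcap, the titin cap, measured 11.36, 12.03, 11.78 and 11.41 against 12.10, 12.01 and 11.18. Females 7, 84 and 29 were the 3 lowest animals for Tcap, whichever group they came from. The remaining Z-disc and M-band members, Ldb3, Myom1, Myom2, Myot, Nrap and Smpx, had differences from -0.14 (Nrap, a scaffold of assembling myofibrils) to 0.62 (Myot, myotilin; SE 0.29).

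The calcium handling genes had 5 of 9 above 0 with a median of 0.07, which turned to -0.22 without wildtype 29 (4 of 9), -0.04 without transgenic 17 (4 of 9) and -0.20 with the Gapdh covariate (3 of 9). Ryr1, the calcium release channel of the sarcoplasmic reticulum, measured 10.94, 10.81, 11.19 and 10.90 in the transgenic animals and 10.62, 10.51 and 9.84 in the wildtype animals. It was the only member in which every transgenic animal lay above every wildtype animal, 1 of 46 (2.17%) beside 5.16% of all genes, and 0 members lay wholly below, beside 3.89%. The difference was 0.64 (SE 0.21, 95% interval 0.17 to 1.11), with an unadjusted p of 0.0138 and a limma adjusted p of 0.34. That difference was 0.40 without wildtype 29 and 0.61 with the Gapdh covariate. Cacna1s, the voltage sensor that opens Ryr1, differed by 0.07 (SE 0.21), its subunit Cacng1 by -0.19 (SE 0.26), and Trdn, triadin, which anchors calsequestrin to the channel, by 0.15 (SE 0.33). The 95% intervals of these 3 partners all included 0.

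Atp2a1, the fast calcium pump SERCA1, measured 13.28, 12.89, 13.24 and 13.12 against 13.51, 13.27 and 12.65, a difference of -0.01 (SE 0.21). Sln, sarcolipin, the small peptide that uncouples the pump and is used for heat production in muscle, measured 10.38, 9.72, 10.28 and 10.29 against 11.86, 9.93 and 10.58. Wildtype 26 alone was high, and the difference of -0.62 (SE 0.40, limma adjusted p of 0.568) was -0.08 without it. Pvalb, parvalbumin, the calcium buffer of the fastest fibres, measured 12.42, 11.72, 12.32 and 12.42 against 12.73, 12.16 and 11.86, with transgenic 11 the lowest animal. Casq1, the calcium store protein calsequestrin, measured 11.78, 10.65, 11.57 and 11.74 against 11.22, 11.09 and 10.54, with a difference of 0.48 (SE 0.29), and Jph1, junctophilin 1, which holds reticulum and membrane together, differed by 0.42 (SE 0.32). Transgenic 11 was the lowest of its group for both.

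The 7 genes of energy supply all had differences above 0, with a median of 0.35 and 0 at an unadjusted p under 0.05, although Ckm turned to -0.10 after cyclic loess and -0.04 after quantile normalization. Without wildtype 29 it was 4 of 7 with a median of 0.11, and with the Gapdh covariate 4 of 7 with a median of 0.16. Ckm, the muscle creatine kinase that regenerates ATP, measured 13.29, 13.76, 14.10 and 13.67 against 14.00, 13.62 and 13.44, a difference of 0.02 (SE 0.21). Mb, myoglobin, the oxygen store of oxidative fibres, measured 13.04, 12.88, 13.52 and 12.94 against 13.20, 12.99 and 12.03. Wildtype 29 was the lowest for Mb by a wide margin. The difference of 0.35 (SE 0.28) was -0.003 without that animal and 0.37 with the Gapdh covariate. Fbp2, the muscle fructose bisphosphatase, measured 8.40, 7.60, 7.94 and 8.03 against 6.68, 8.23 and 7.42, and the arrays of wildtype 29 differed by -1.01 for it, the most of any member. Ckmt2, the mitochondrial creatine kinase, and the glycolytic and glycogen enzymes Eno3, Pgam2 and Pygm had differences between 0.06 (Pygm, glycogen phosphorylase) and 0.37 (Ckmt2).

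Trim63, which encodes the ubiquitin ligase MuRF1 and is raised in muscle atrophy, measured 8.78, 8.46, 9.50 and 9.53 in the transgenic and 9.52, 9.62 and 8.86 in the wildtype animals. Transgenic 11 was the lowest and transgenic 17 and 84 lay with wildtype 26 and 28, so the groups overlapped, with a difference of -0.27 (SE 0.31, limma adjusted p of 0.767).

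**Figure D2:**
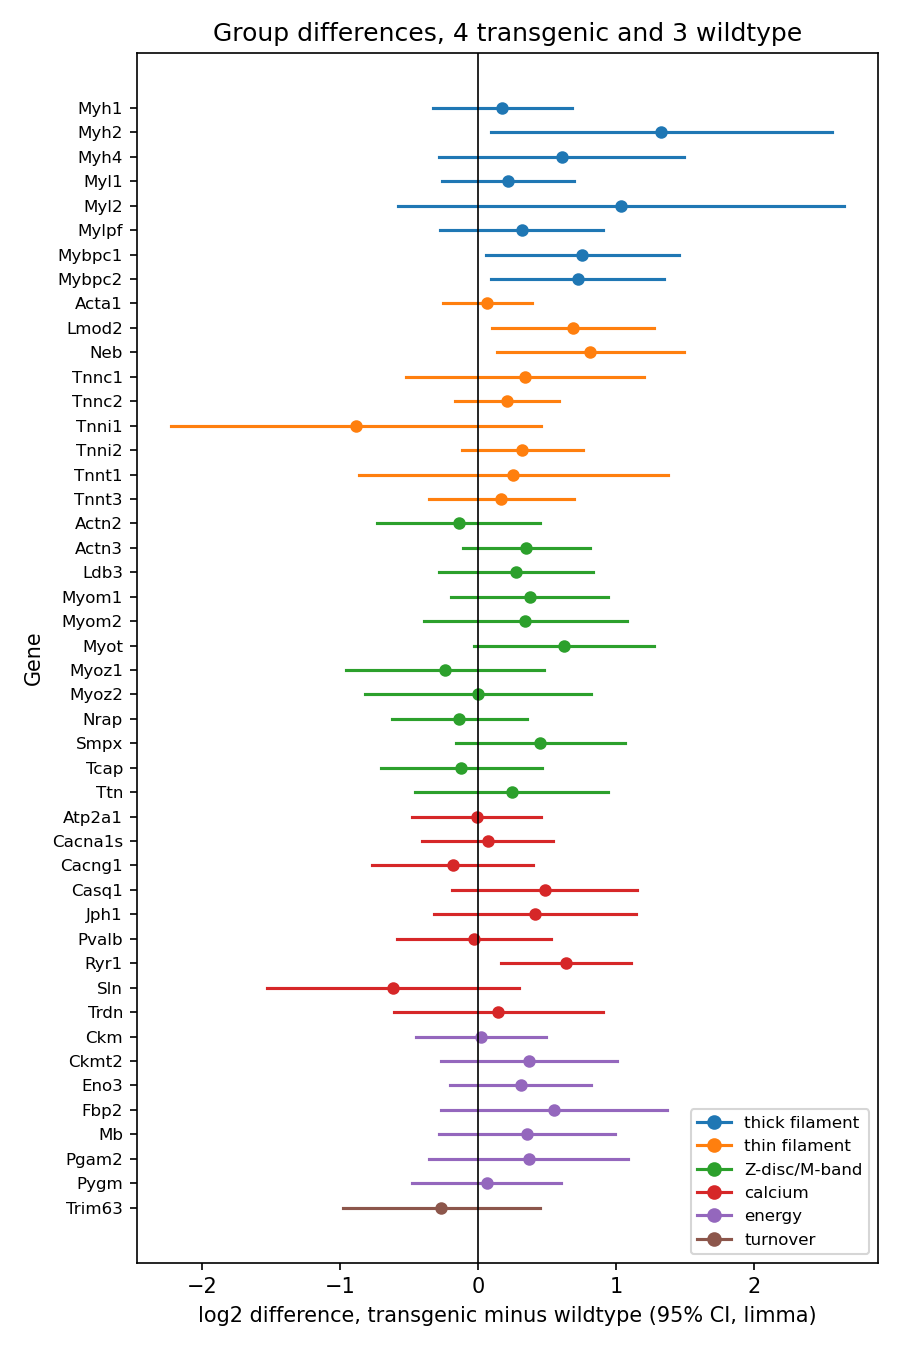
Log2 difference (transgenic minus wildtype) of each of the 46 member genes with its 95% interval from limma, ordered by role; the vertical line marks 0. The thick filament and energy supply genes all have points to the right of 0, and no gene passed adjustment over all probe sets.

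Fast relative to slow fibre genes differed between the groups by less than the spread between animals. For each animal the deviation from the wildtype mean was averaged over 13 fast genes and over 6 slow genes, and the fast minus slow value was -0.34, 0.05, 0.43 and 0.13 in transgenic 7, 11, 17 and 84 and 0.39, -0.32 and -0.07 in wildtype 26, 28 and 29. The group means were 0.07 ± 0.32 (SD, n = 4) and 0.00 ± 0.36 (SD, n = 3), so the difference was small beside the spread between animals of 1 group. The fast genes had 10 of 13 differences above 0 with a median of 0.22, and the slow genes 4 of 6 with a median of 0.30. In the slow list Mybpc1 lay at 10.57 to 12.55, a level like that of fast Mybpc2, and the other slow genes at 4.85 to 9.26. The highest fast minus slow values were those of transgenic 17 and wildtype 26 and the lowest those of transgenic 7 and wildtype 28, so each group held both ends of the range.

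Partner pairs did not lean the same way. The fast partner's difference exceeded the slow one's by 1.21 for the troponin I pair, whereas the same subtraction gave -0.72 for the regulatory light chains, where transgenic 7 alone held the high Myl2. The other 4 pairs of a fast and a slow gene gave values from -0.24 to -0.03. For the alpha-actinins, of which Actn2 is in all fibres, Actn3 minus Actn2 was 0.49. The slow genes Tnni1 and Myl2, both of slow fibres, had differences of opposite sign (-0.89 and 1.03). Both lay at low levels on their own scale, where Tnni1 ranged from 4.85 to 7.60 and Myl2 from 5.15 to 9.09, near the floor of 4.45 in single animals. Slow Tnnc1 was low as well, from 6.32 to 7.88. The filter at the 60th percentile left out Tnni1, Myl2 and Tnnc1, so the fast minus slow values rest in part on dim slow genes.

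**Figure D3:**
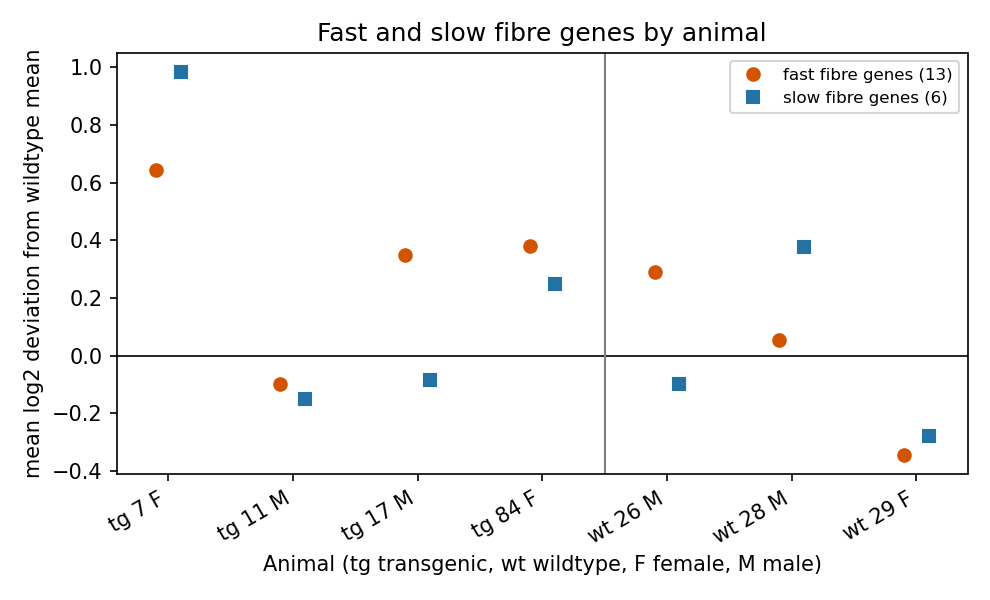
Mean log2 deviation from the wildtype mean over the 13 fast and the 6 slow fibre genes (vertical axis), a circle for fast and a square for slow, for each of the 7 animals along the horizontal axis. Transgenic 7 is highest for both (0.64 fast, 0.98 slow) and wildtype 29 lowest (-0.34 fast, -0.28 slow).

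The muscle level as a whole differed between single animals of both groups. The members' median deviation from the wildtype mean was 0.55 in transgenic 7, -0.10 in 11, 0.42 in 17 and 0.27 in 84, and 0.30, 0.13 and -0.40 in wildtype 26, 28 and 29. Transgenic 11 therefore stood below wildtype 26 and 28, and wildtype 29 below all others. Wildtype 29 was the lowest of the 7 animals for 26 of 46 members (56.5%, beside 17.6% of all genes), and transgenic 7 the highest for 17 (37.0%, beside 16.3%). The members' median SD between animals was 0.37 in the transgenic and 0.42 in the wildtype group, against 0.28 and 0.25 over all genes.

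Wildtype 29 was measured on 2 arrays. The members' median absolute difference between those arrays was 0.14, beside 0.16 over all genes, and the second array was the higher for 7 of 46 members (15.2%), beside 48.5% of all genes, with a median of -0.14 beside -0.01. The largest differences were -1.01 for Fbp2 and -0.94 for Tnnt1.

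Leaving out single animals moved the count of members at an unadjusted p under 0.05 more than any normalization did. The share of all genes higher at that threshold moved too and is given beside each count. It was 16 higher without transgenic 11 (7.23% of all genes), 10 higher and 1 lower without wildtype 26 (9.58%), 6 higher and 1 lower without wildtype 28 (1.64%), and 5 higher without transgenic 17 (3.16%). It was 2 higher without transgenic 7 (2.67%), 1 higher without transgenic 84 (2.44%), 0 without wildtype 29 (2.25%) and 0 without transgenic 7 and 84 together (1.74%). No member passed the adjusted threshold in any of these fits.

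Split by sex, the higher muscle values in transgenic skin lay in the females. Among females, transgenic 7 and 84 exceeded wildtype 29 in the mean for 41 of 46 members, with a median of 0.75, beside 54.9% of all genes and a median of 0.06. Among males, transgenic 11 and 17 exceeded wildtype 26 and 28 for 16 of 46, with a median of -0.05, beside 54.9% of all genes and a median of 0.03. The comparison in females rests on wildtype 29 alone, and transgenic 7 and 84 had the highest Gapdh ratios.

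The male minus the female difference was fitted as an interaction of group and sex in limma, added after the split by sex had been seen and with 1 animal, wildtype 29, in one arm. The coefficient was below 0 for 43 of 46 members, with a median of -0.84, a count that rests on that animal and on genes that vary together, and so is no further result. After adjustment 0 members passed, the lowest adjusted p was 1.0, and 0 of 27022 probe sets passed (0.0%). Within sex, Neb measured a difference of 1.62 in females and 0.31 in males, Mybpc2 1.54 and 0.19, and Myh2 2.20 and 0.44. The 3 members with a coefficient above 0 were Ckm, Cacna1s and Myoz1, of which Ckm measured 0.04 in females and 0.12 in males.

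**Figure D4:**
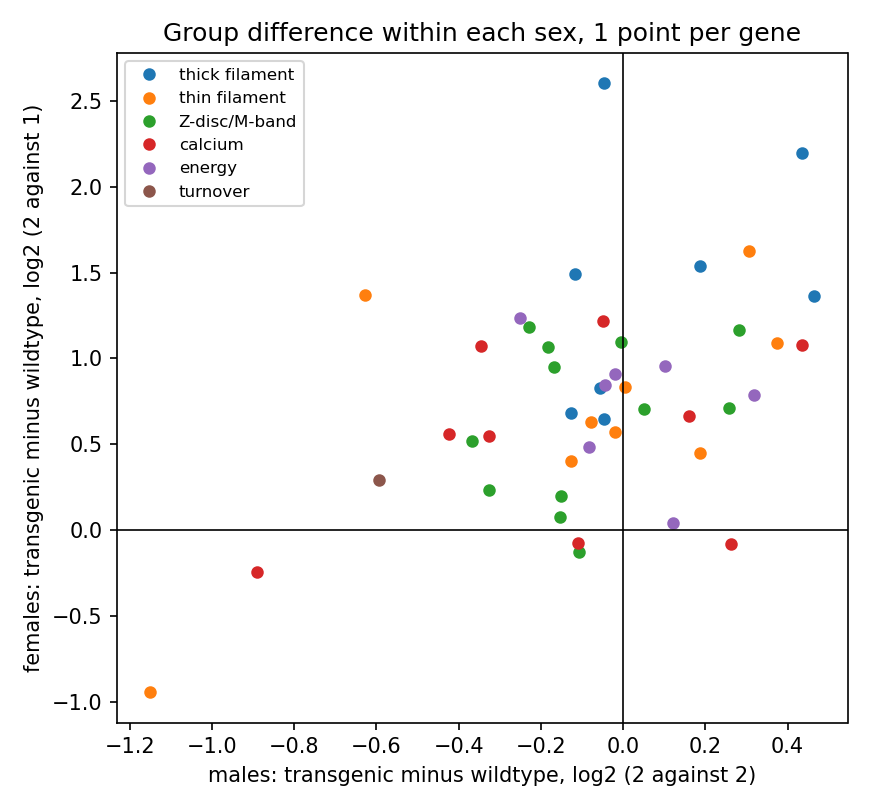
Log2 difference (transgenic minus wildtype) of each of the 46 member genes in females (vertical axis, 2 transgenic against 1 wildtype animal) and in males (horizontal axis, 2 against 2), coloured by role. The female differences lie above 0 for 41 genes and the male ones for 16, and there is 1 wildtype female.

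Males and females were also compared over both groups, with group kept in the model. Of 46 members 0 passed the adjusted threshold (lowest adjusted p of 0.181), beside 61 probe sets (0.226%) and 40 genes (0.295%). At an unadjusted p under 0.05, 6 members stood higher in males (13.0%, beside 7.04% of all genes): Tcap, Myoz1, Pygm, Cacng1, Ckm and Mb. Only Myh2 stood higher in females (beside 4.79%), at -1.13 male minus female (SE 0.41). For Tcap the coefficient was 0.66 (SE 0.14, 95% interval 0.34 to 0.98, unadjusted p of 0.0013, limma adjusted p of 0.181), and for Myoz1 it was 0.75 (SE 0.20, unadjusted p of 0.00573, limma adjusted p of 0.299). Tcap passed, with an adjusted p of 0.0427, only when the 8 arrays were taken as separate samples. Adjusted for the Gapdh ratio, 27 of 46 members stood higher in males at an unadjusted p under 0.05, beside 6.41% of all genes, and 0 passed adjustment. That fit held group, sex and the ratio on 7 animals, of which 1 was a wildtype female. Because the ratio also differed between the sexes of the transgenic group and the members vary together, the fit cannot tell sex and ratio apart.

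Other probe sets of the same genes did not always agree in sign with the chosen ones. Of the 28, 19 passed the filter, in 11 genes, and 8 of these 19, in 6 genes (Mybpc1, Myh4, Myom2, Myoz1, Trdn and Ttn), had a difference between groups of the opposite sign. Mybpc1 had 2 other probe sets that passed. The first, chosen here after its values were seen because it passed the sex comparison, measured 7.69, 9.34, 9.22 and 7.37 in the transgenic animals and 9.76, 9.91 and 8.74 in the wildtype animals. All 4 males lay above all 3 females, at means of 9.56 and 7.93, and the male minus female coefficient was 1.49 (SE 0.20, 95% interval 1.03 to 1.94, limma adjusted p of 0.0343). It passed in 12 of 20 alternatives, over which the coefficient ran from 1.09 to 1.75 and the adjusted p from 0.00874 to 1.0. The 8 in which it did not pass were the Gapdh covariate (1.16, adjusted p of 0.385), no variance trend (0.095), and the fits without transgenic 11 (0.0974), 17 (0.222), 7 (0.17) or 84 (0.175), without transgenic 7 and 84 (1.0) and without wildtype 29 (0.0708). The second gave a male minus female coefficient of 0.68 (limma adjusted p of 0.375). Between groups they differed by -1.07 and -0.27, where the chosen probe set of Mybpc1 gave 0.76.

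Myh4 likewise had a dimmer probe set, also picked out after its values were seen, with 6.57, 7.94, 5.51 and 5.14 in the transgenic and 9.05, 7.73 and 7.83 in the wildtype animals. Its difference of -1.92 (unadjusted p of 0.0172, limma adjusted p of 0.353) was opposite in sign to the 0.60 of the chosen one. When the probe sets of each gene were averaged, Myh4 gave -0.66 and Mybpc1 gave -0.19. Which transcripts each probe set detects was not analysed here, and because the myosin heavy chains are close relatives their separate signals are uncertain.

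Of 55 further muscle genes, 51 were annotated and 44 passed the filter. The median difference was 0.14 with 27 above 0 (61.4%, beside 56.3% of all genes). At an unadjusted p under 0.05, 2 stood higher (4.55%, beside 4.4%) and 0 lower, and 0 passed adjustment, so these shares were near those of all genes. Mylk4, a myosin light chain kinase family member, differed by 1.19 (unadjusted p of 0.0107, limma adjusted p of 0.331). Smyd1, a methyltransferase and myosin chaperone partner of muscle, differed by 0.83 (unadjusted p of 0.0301, limma adjusted p of 0.388), as the 1 gene of the 44 (2.27%, beside 5.16%) that stood higher with no overlap between the groups. In the sex comparison 2 of the 44 stood higher in males at an unadjusted p under 0.05 (4.55%, beside 7.04% of all genes). Des, desmin, the intermediate filament around the Z-disc, differed by 1.11 male minus female (unadjusted p of 0.000695, limma adjusted p of 0.134), and Stac3, a component of the calcium release junction, by 0.99 (unadjusted p of 0.0328).

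Markers of other cells were read beside the muscle genes. The heart markers Myh6, Myl7, Nppa and Tnni3 did not pass the filter, and 3 of 7 cardiac genes, Myl4, Nppb and Tnnt2, did. Their means were 7.53, 7.53 and 7.65 in transgenic and 7.42, 7.23 and 7.79 in wildtype skin. The smooth muscle list, of which 7 of 8 passed, had a mean level of 9.17 to 9.58 in the transgenic and 9.41 to 9.80 in the wildtype animals. Smtn and Tagln were lower at an unadjusted p under 0.05 (-0.73 and -0.55), beside 4.6% of all genes. Each had a limma adjusted p of 0.401. Of the 7, 2 lay above 0, Lmod1 (0.52) and Acta2 (0.005), and the median was -0.27. Of the adipocyte genes 5 of 5 annotated lay above 0. Lep, Adipoq and Fabp4 had an unadjusted p under 0.05, beside 4.4% of all genes higher. Their limma adjusted p-values were 0.217, 0.353 and 0.342, and 0 smooth muscle and 0 adipocyte genes passed adjustment. The adipocyte list means were 12.08, 12.24, 12.66 and 12.74 against 11.89, 11.42 and 11.56, without overlap. Of its genes, Lep (difference of 2.52) and Fabp4 (0.38) were higher without overlap, beside 5.16% of all genes. The groups overlapped for Adipoq, Cidec and Retn. Transgenic 11, whose muscle level was the lowest of its group, was not the lowest for the adipocyte list mean, where transgenic 7 was. By gene, transgenic 11 was the lowest of its group for Adipoq (13.82), Fabp4 (14.73) and Retn (11.92), and transgenic 7 for Cidec (9.40) and Lep (9.34). The part of fat tissue in the muscle values was not tested.

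The hair shaft keratins, by contrast, ranged widely: 13.73, 12.71, 9.90 and 13.68 in the transgenic and 6.67, 14.19 and 14.28 in the wildtype animals. The animal with the lowest hair keratins, wildtype 26, had a muscle mean of 11.20, and the animals with the highest, wildtype 29 and 28, had 10.58 and 11.09. In transgenic 7, 11, 17 and 84 the muscle means were 11.43, 10.82, 11.32 and 11.27. There the animal with the highest hair keratins, transgenic 7, also had the highest muscle mean. The keratinocyte list passed whole, at 13.97 to 14.35 in the transgenic and 13.67 to 14.43 in the wildtype animals, and the endothelial list stood at 8.44 to 8.93 and 8.47 to 9.26. Of the muscle stem cell genes, Pax7 and Cdh15 passed, with means of 6.63 and 7.87 in transgenic and 6.31 and 7.62 in wildtype skin, and Myf5 and Chrdl2 did not. The part of these cells in the muscle values was not tested.

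**Figure D5:**
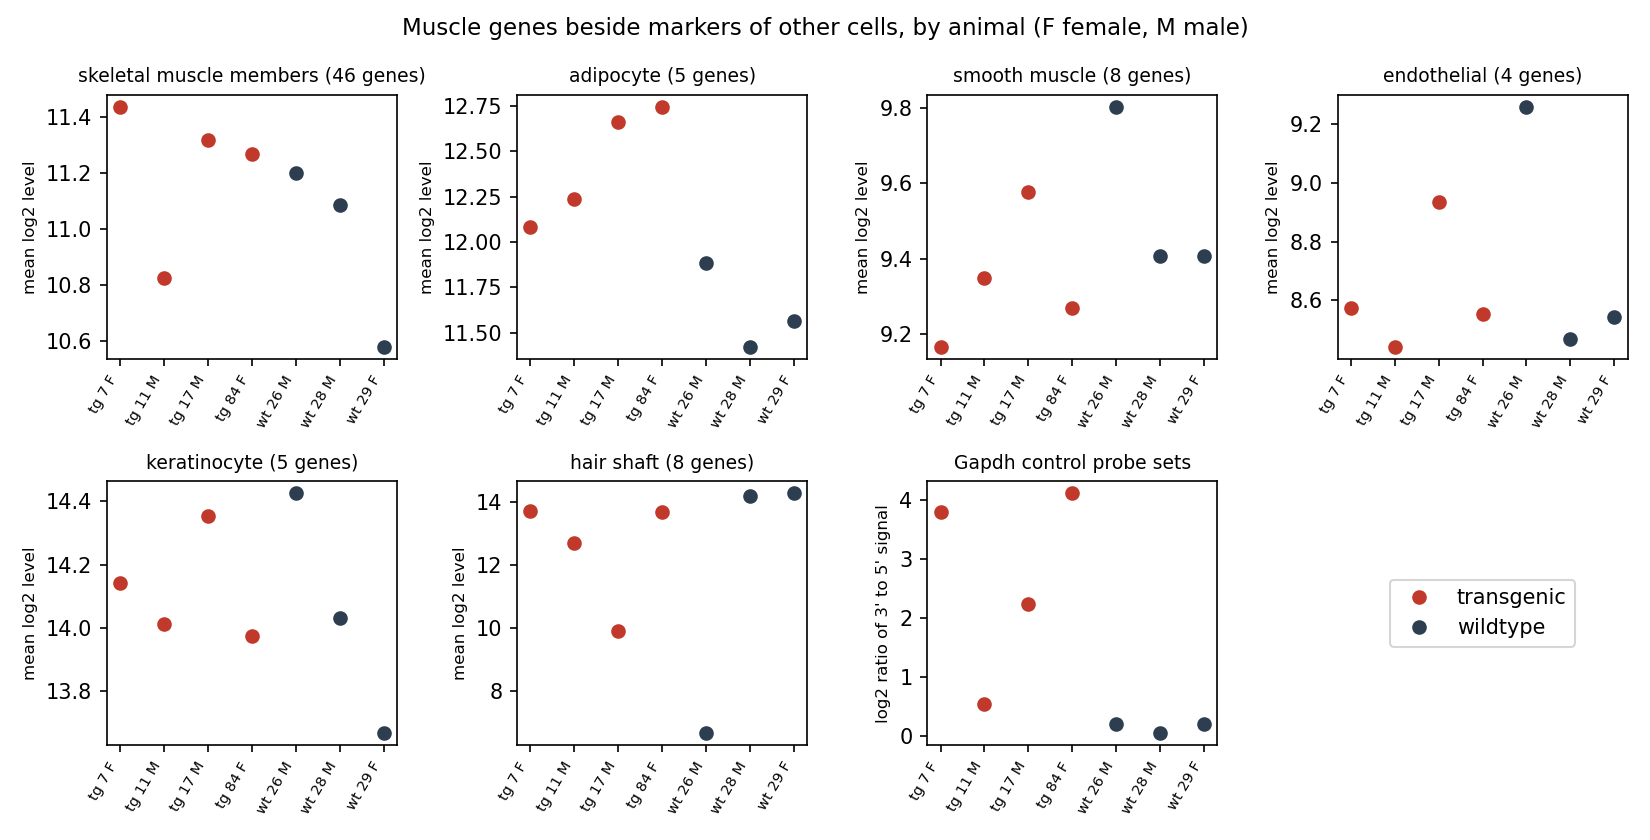
Mean log2 intensity per animal of the skeletal muscle members and of the marker lists of other cell types, each panel on its own scale, with the log2 Gapdh ratio in the last panel. The muscle mean runs from 10.58 in wildtype 29 to 11.43 in transgenic 7, and the hair shaft mean from 6.67 to 14.28.

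The promoter windows of the members were searched for motifs of muscle transcription factors. RefSeq gave windows for 35 of 47 members, 41 in all, on GRCm38.p6. CAGCTG, an E-box core that myogenic factors such as MyoD bind, was found in 21 of 41 (51.2%) and in 13.0% of all 32851 windows, and the looser CANNTG, which includes it, in 82.9% and 66.2%. The CArG box occurred in 12.2% and 1.47%, the MEF2 site in 17.1% and 2.92%, and TATAAA on the gene's strand in 12.2% and 7.59%. All but TATAAA were searched on both strands. The genes with a CArG box were Acta1, Ldb3, Myh4 and Myom1, and those with a MEF2 site were Myh1, Myh4, Myoz2, Pgam2, Pvalb, Ttn and Xirp2. Among the 3 myosins printed above, Myh4 held CAGCTG and the shares are a description of letters, not of binding. Actn3, Cacng1, Jph1, Myom2, Myot, Myoz1, Neb, Sln, Tcap, Tnni2, Tnnt3 and Trdn were not matched to a window.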

How the data were processed

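Total RNA of belly skin from 7 mice was measured on 8 oligonucleotide arrays. The deposited values are linear signal intensity made by the authors with MAS5, per the submitters' processing notes. To each intensity 21.8 was added, the 20th percentile of all values, and log2 was taken with no further normalization, because the arrays already shared a trimmed mean of 500.003, and wildtype 29's arrays were averaged. Gene names came from the array annotation, in which 34945 probe sets have 1 symbol, 932 several and 9160 none, and only probe sets with 1 were named. Probe sets with a mean under 6.45, the 40th percentile, were left out, leaving 27022. Groups, and sexes with group as a term, were compared by limma 3.58.1 in R 4.3.3 (empirical Bayes with trend, 2-sided, Benjamini-Hochberg). The same fits were also run on simulated data with the means and variances of these data, and their outcome is not given here. The number of arrays limits the precision.

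The members, lists and tests were chosen with earlier results of these data known, so the members' counts stand beside those of all genes, without a test of the list. Values in every animal are given for fast and slow partner genes, the fast myosins, a set of fixed genes, and the members with the most extreme differences or smallest p-values. Other genes are given by range and count, and for some of them single values appear that were chosen after they were seen. Alternatives covered normalization, pseudocount, filter, variance model, probe set choice, the arrays of wildtype 29, sex, the Gapdh ratio and each animal left out. Figures used Python 3.11.15, pandas 2.3.3 and matplotlib 3.10.9.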

Additional observations from a re-analysis of the deposited data

Results flagged for a closer look

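Among the 46 members tested for a transgenic animal that stands far from the other 3, by the ratio of its gap to the group's range, 5 had such an animal (10.9%), beside 5.11% of all genes tested, and chance marks about 1 in 20 groups. Of the 5, 4 were the same animal, transgenic 11, and muscle genes vary together, so the 4 are not independent. Jph1, junctophilin 1, measured 7.79 in transgenic 11, where the others lay from 8.89 to 9.11. Myom2, an M-band protein, measured 10.66 in that animal against 11.68 to 11.79. Pvalb measured 11.72 against 12.32 to 12.42, and Sln measured 9.72 against 10.28 to 10.38. The fifth was Myl2, which measured 9.09 in transgenic 7, where the others lay from 6.33 to 6.80. Transgenic 11 was also the lowest animal of all 7 for 9 of 46 members (19.6%, beside 9.3% of all genes), and its Gapdh ratio of 1.45 was the lowest of the transgenic group.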

How the results depend on the processing

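The count of members called between groups was 0 in all 22 alternatives, and fast minus slow stayed between -0.09 and 0.26, within the spread between animals. The filter at the 60th percentile kept 41 members. The number of probe sets called, 4, was 28 with 8 separate arrays, 0 with the Gapdh covariate, 2 with the filter at the 60th percentile, 0 with the mean over probe sets, 9 with a pseudocount 4 times larger, 9 with the second array of wildtype 29, 11 with sex as a covariate and 0 to 280 with single animals left out. In those last fits the members' median ran from 0.07 to 0.40 and the number above 0 from 27 to 39. With the Gapdh covariate they were -0.07 and 22. The sex comparison called 1 member, Tcap, with 8 separate arrays.

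Among the members given in every animal these signs turned, none with an adjusted p under 0.05, and the cause was not tested. With the Gapdh covariate: Acta1 -0.052, Actn2 0.013, Actn3 -0.12, Myh2 -0.31, Myh4 -0.088, Mylpf -0.26, Myoz1 0.27, Tcap 0.37, Tnnc2 -0.11 and Tnnt1 -0.44. Of the other members, 11 turned there too: Casq1 -0.27, Ckmt2 -0.23, Cacng1 0.18, Eno3 -0.12, Jph1 -0.36, Ldb3 -0.17, Myl1 -0.25, Myom2 -0.40, Pgam2 -0.41, Smpx -0.19 and Trdn -0.12. After cyclic loess: Acta1 -0.087, Ckm -0.10 and Myoz2 0.068. After quantile normalization: Ckm -0.042 and Myoz2 0.065. Without transgenic 7 and 84: Actn2 0.054, Myoz1 0.14, Tcap 0.14 and Tnnt1 -0.40. With 8 arrays: Atp2a1 0.11, Myoz2 0.076, Pvalb 0.068 and Tcap 0.025. With the second array of wildtype 29: Atp2a1 0.005 and Myoz2 0.027. With sex as a covariate Atp2a1 gave 0.024, and with a pseudocount 4 times larger Myoz2 gave 0.008. With the mean over probe sets Mybpc1 gave -0.19 and Myh4 gave -0.66.

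Leaving out single animals gave Acta1 -0.076 to 0.17, Actn2 -0.35 to 0.002, Atp2a1 -0.26 to 0.17, Ckm -0.11 to 0.18, Mb -0.003 to 0.58, Myh1 -0.076 to 0.32, Myoz1 -0.49 to 0.031, Myoz2 -0.19 to 0.32, Pvalb -0.22 to 0.21, Tcap -0.41 to 0.046, Tnnt1 -0.003 to 0.69, Tnnt3 -0.051 to 0.35 and Ttn -0.15 to 0.55. Sex as a covariate was not run for the sex comparison, which already holds it. No paired analysis was possible because the groups share no replicate numbers. With 4 and 3 animals, of which 1 is a wildtype female, differences near the spread between animals were not detectable, and Tnni1 and Myl2 came near the floor.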
